A study of Homo sapiens with 32 samples.

Results

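These results concern 54 transcription start sites that stood higher with bicalutamide than with its vehicle in BicR prostate cancer cells, out of 13294 sites in the deposited table of LNCaP and BicR cells (0.406%). The start sites were counted by cap analysis of gene expression (CAGE), in which each sequenced tag marks the capped 5′ end of an RNA and so the base where transcription began. Levels are in RPM, the authors' scaling of tags to a common library total (RPM is their label). A site was taken when its level plus 1 RPM with bicalutamide was at least 1.7 times that with ethanol, the vehicle, at 6 h and again at 24 h, and when it reached 10 RPM in at least 1 of the 2 bicalutamide libraries. The sites were thus chosen by the levels in the BicR bicalutamide and ethanol libraries, and those levels are given as a description with no test.

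LNCaP is an androgen-responsive line from a human prostate cancer metastasis, and BicR, which the labels name without spelling it out, is another prostate cancer line. Both were kept for 3 days in phenol-red-free medium with 2.5% charcoal-stripped serum, which holds little hormone, so the untreated and ethanol libraries also come from hormone-poor medium. Each line was sampled untreated (0 h) and after 6 and 24 h with ethanol, 10 nM dihydrotestosterone (DHT), 1 µM bicalutamide, or DHT with bicalutamide, giving 9 libraries per line and 1 library per condition. A separate experiment followed LNCaP with the synthetic androgen R1881 at 0, 3, 6, 12, 18, 48 and 72 h with 2 libraries per time, at 1 nM by the sample characteristics, although the treatment protocol common to all samples has 10 nM and 24 h. Nothing in the labels says that libraries came from separate cultures, so the p-values measure the spread between these libraries, which may be technical. With 1 library per condition in the LNCaP and BicR experiment, that spread also holds any change from 6 to 24 h that differs between treatments.

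The androgen receptor is a transcription factor that binds DNA once testosterone or DHT occupies its ligand pocket, and in prostate cells it then raises transcription of secretory and metabolic genes. Bicalutamide competes for the same pocket and is used as an antagonist in prostate cancer. Antagonists of this class are known to act as partial agonists in some cells with a changed or overabundant receptor, and LNCaP cells themselves carry a receptor with an altered ligand-binding domain. The comparisons below therefore set the same sites beside DHT in BicR, bicalutamide in LNCaP, and DHT and R1881 in LNCaP. The files pair no site with a gene, so each site is named by its hg19 chromosome, position (counted from 1) and strand. No gene group could be formed, and the lines could not be checked against marker genes.

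The 18 libraries of the table held 4139807 to 7753336 tags. There 3 tags, the limit used for a site at 0, correspond to 0.326 to 0.601 RPM. The R1881 libraries held 128463 to 3837493 tags, so that 3 tags correspond to 0.691 to 19.4 RPM. In BicR the library taken after 6 h of both DHT and bicalutamide stood apart from the rest. It reached 10 RPM at 220 of the 221 sites that lay under 1 RPM in at least 15 of the 18 libraries, with a summed 7667 RPM over the 221. At the same sites the LNCaP library of bicalutamide at 6 h summed to 601 RPM, with 9 at that level, and the LNCaP library of both compounds at 6 h to 169.7 RPM, with 0, whereas the other libraries summed to 6.66 to 27.2 RPM. None of the 54 sites is among those 221, but that library enters the shared estimate of spread, and results that move without it are given beside the main ones. In RNA from whole cultures, fewer cells using a start site and less RNA per cell cannot be told apart.

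The sites lay on 17 chromosomes. Chromosome 1 held 11 of them, chromosome 19 held 8, and chromosomes 2, 8 and 12 held 5 each. Of all sites in the table, 10.0% were on chromosome 1 and 7.29% on chromosome 19, against 20.4% and 14.8% of the 54. All 8 on chromosome 19 fell between 51307850 and 51412635, on both strands. Joined within 10000 bp on the same strand, the 54 sites formed 47 neighbourhoods, 5 of which held more than 1. Those were 3 sites at 205627618 to 205633975 on the minus strand of chromosome 1, 3 at 23537636 to 23540447 on the minus strand of chromosome 8, and a pair each at 65088997 and 65090863 (chromosome 12, plus), at 51376694 and 51379153 (chromosome 19, plus) and at 51411874 and 51412635 (chromosome 19, minus). Sites within a neighbourhood may belong to the same gene and are not independent.

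With bicalutamide in BicR the level plus 1 RPM stood at 1.76 to 13.7 times the ethanol level at 6 h (median 2.88) and at 1.71 to 9.63 times at 24 h (median 2.43). The median level over the 54 sites was 9.96 RPM untreated, 8.84 and 11.4 RPM with ethanol at 6 and 24 h, and 28.2 and 26.5 RPM with bicalutamide. The 2 sites with the highest smaller ratio were low without the drug. The plus-strand site at 234862316 on chromosome 2 read 2.37 RPM untreated, 2.47 and 1.20 with ethanol, and 20.3 and 20.2 with bicalutamide. The minus-strand site at 80993064 on chromosome 8 read 6.76 RPM untreated, 4.81 and 2.41 with ethanol, and 34.0 and 27.1 with bicalutamide. At both, each bicalutamide library, as used by the rule, lay well above the 3 control libraries.

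Sites in heavy use were also among the 54. The plus-strand site at 51376694 on chromosome 19 had the highest mean level with bicalutamide, at 748 and 811 RPM against 152 and 138 with ethanol and 207 untreated. On the same strand the site at 51358170 read 277 and 419 RPM with bicalutamide, 102 in both ethanol libraries and 128 untreated. The minus-strand site at 23540447 on chromosome 8 read 443 and 240 RPM with bicalutamide, 94.5 and 81.4 with ethanol and 154 untreated. The minus-strand site at 167905232 on chromosome 1 had a high level and a small difference, at 402 and 397 RPM against 219 and 216. In each of these 4 the bicalutamide libraries, which chose the sites, stood above every BicR control library.

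Around the threshold the choice of sites is narrow. Just inside it were the minus-strand sites at 56285070 on chromosome 20, whose smaller ratio was 1.71 (47.9 and 22.7 RPM with bicalutamide, 8.06 and 12.9 with ethanol), and at 2342274 on chromosome 1, also 1.71 (26.4 and 17.9 RPM against 8.19 and 10.0). Just outside, both at 1.69, were the site at 95297554 on the minus strand of chromosome 5 and the site at 24870830 on the plus strand of chromosome 3. A required ratio of 1.5 takes 87 sites and a ratio of 2 takes 36.

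The choice of control matters to membership. The mean ethanol level plus 1 RPM was below the untreated one at 48 of the 54 sites, with a median ratio of 0.850 against 0.978 over all sites. The rule divides by ethanol and so favours sites with low ethanol readings, which makes this count a description of the choice. Against the untreated library both bicalutamide libraries were higher at all 54 sites, at least 1.5 times at 50 and at least 1.7 times at 37. The bicalutamide libraries chose the sites, so these counts describe the choice and do not test it. The same rule with the untreated library as control took 60 sites, of which 37 were among the 54. From 6 to 24 h the members' median ratio of levels plus 1 RPM was 0.854 with bicalutamide, with 37 sites lower at 24 h, while over all sites this median was 1.21.

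**Figure D1:**
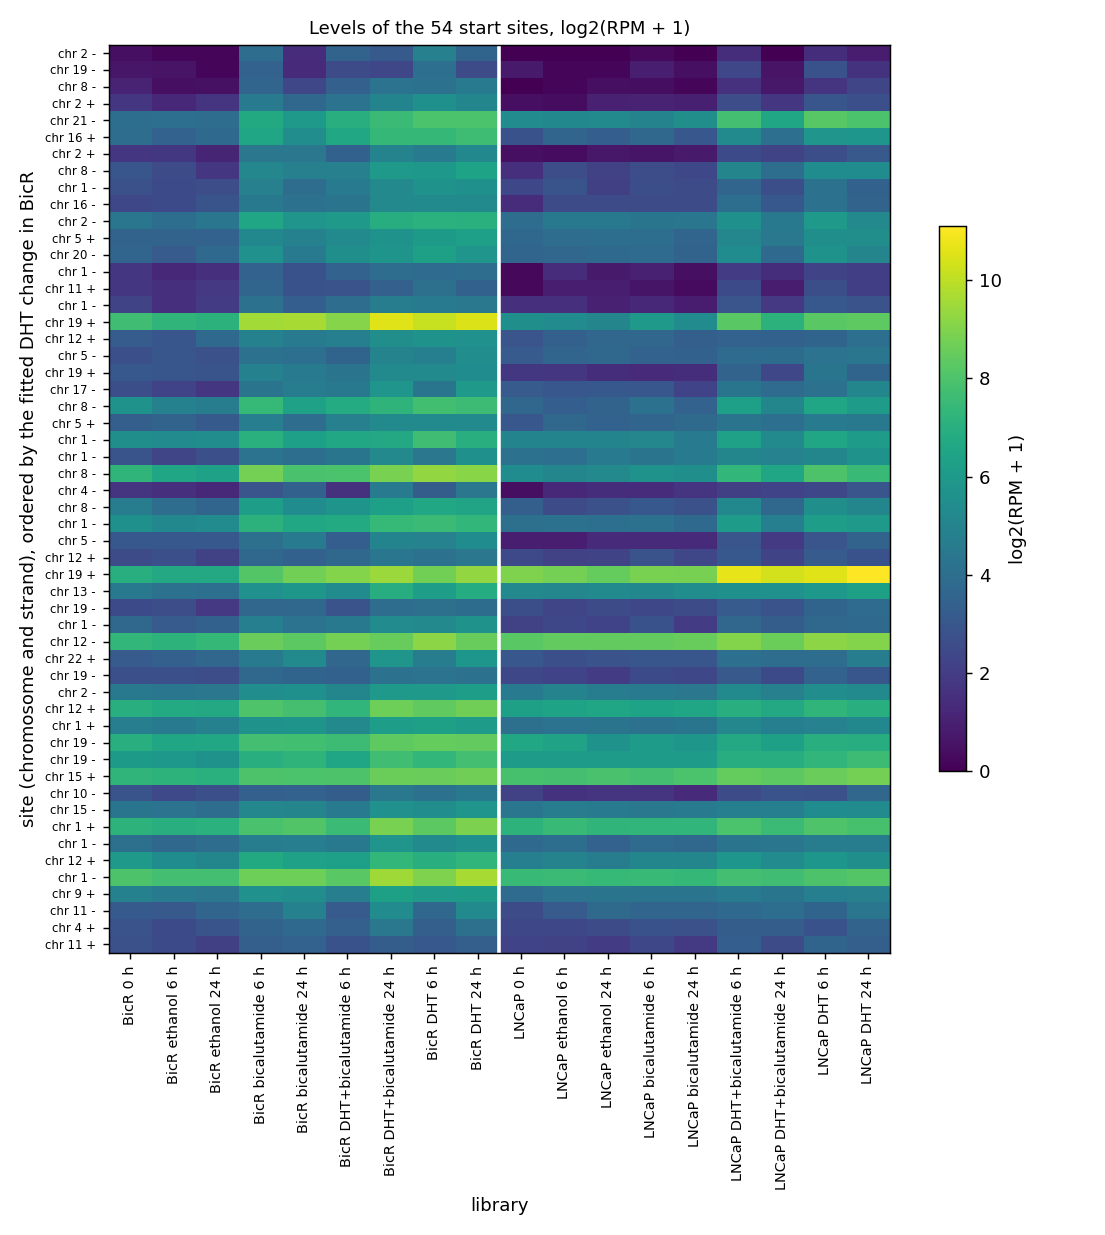
Level of each of the 54 start sites (rows, named by chromosome and strand, ordered by the fitted DHT change in BicR) in each of the 18 libraries (columns), as log2 of RPM plus 1. In BicR, on the left, the bicalutamide columns lie between the control columns and the DHT columns for most sites, and in LNCaP, on the right, the bicalutamide columns resemble the ethanol columns.

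With DHT in BicR 31 of these sites passed as higher (1.02% of all sites), and 23 did not pass. Every one of the 54 stood higher in both DHT libraries than in the untreated library, an arrangement found at 26.7% of all sites. The median level was 48.1 and 54.3 RPM with DHT at 6 and 24 h against 9.96 untreated. Because the ethanol libraries chose the sites, DHT was tested against the untreated library, which the rule did not use. The test was edgeR's quasi-likelihood test on the tag counts of all 18 libraries, fitted over all sites, with an adjusted p (Benjamini-Hochberg) under 0.05 counted as a change. All 54 passed the filter on low counts, as did the other sites of the table. The fit has 1 coefficient for every treatment within a line and adjusts for time within a line, so the libraries at 6 and 24 h stand in for replicates. Its time term and spread also draw on the BicR bicalutamide and ethanol libraries, so the test is not free of the libraries that chose the sites.

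Of the 54 sites 31 rose with DHT in BicR and 0 fell, against 1.02% and 0.15% of all sites. The median log2 change was 2.07, with a range of 0.55 to 6.38, against 0.01 over all sites tested. The site with the smallest p, at 113697781 on the plus strand of chromosome 5, read 10.5 RPM untreated, 65.8 and 75.2 with DHT, and 35.7 and 28.03 with bicalutamide (DHT log2 change 2.82, SE 0.32, adjusted p = 0.00888). Its adjusted p ranged from 1.74e-10 to 0.117 over 7 alternative settings, and it no longer passed without the 6 h DHT library. The second, at 92539621 on the minus strand of chromosome 12, was already high untreated (164 RPM) and read 575 and 370 RPM with DHT (log2 change 1.72, SE 0.24, adjusted p = 0.0153, range 5.14e-10 to 0.126 over 7 settings). At both sites the DHT libraries lay above the untreated and ethanol libraries.

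The sites with the largest bicalutamide ratios mostly passed with DHT too. The minus-strand site at 42880084 on chromosome 21 read 14.9 RPM untreated, 105 and 60.7 with bicalutamide, and 246 and 248 with DHT (log2 change for DHT 4.18, SE 0.59, adjusted p = 0.0153). The plus-strand site at 11679944 on chromosome 2 read 2.37 RPM untreated, 22.3 and 12.3 with bicalutamide, and 47.2 and 33.03 with DHT (log2 4.23, SE 0.60, adjusted p = 0.0153). At 74639838 on the minus strand of chromosome 17 the 2 DHT libraries differed, at 18.7 and 62.3 RPM against 5.33 untreated, and the change did not pass (log2 2.38, adjusted p = 0.154). Of the 8 sites with the largest ratios that one alone missed the threshold.

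The count of 31 rests on single libraries and on the fit. It was 50 without the library that stands apart (1.72% of all sites) and 0 without the time term (0% of all sites). It fell when either DHT library was left out, which leaves 1. The median log2 change was then 1.99 without the 24 h DHT library and 2.12 without the 6 h DHT library. At an unadjusted p under 0.05, 51 of the 54 were higher, against 6.36% of all sites, and the untreated arm is 1 library assumed to vary like the others.

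Bicalutamide alone reached a lower level than DHT at most of these sites. The ratio of levels plus 1 RPM, bicalutamide over DHT, had a median of 0.702 at 6 h, with 51 of 54 below 1, and of 0.514 at 24 h, with 53 below 1. Against ethanol, the DHT ratio had medians of 4.10 and 4.66 where that of bicalutamide had 2.88 and 2.43. These values share the libraries that chose the sites and are a description.

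**Figure D2:**
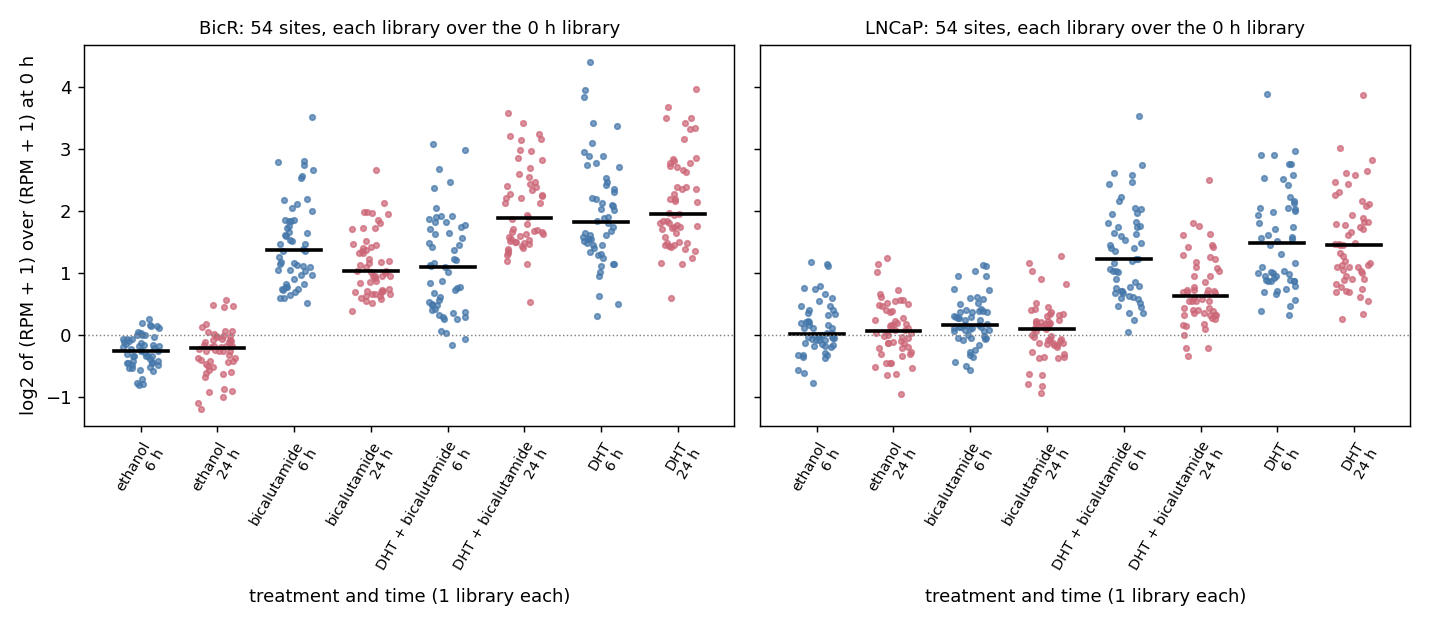
Log2 ratio of each library to the untreated library of its line, in RPM plus 1, for the 54 sites (points) with their median (bar), in BicR on the left and LNCaP on the right. In BicR all 54 points lie above 0 for both DHT libraries and both bicalutamide libraries, while in LNCaP the bicalutamide points spread around 0. The BicR bicalutamide libraries were used to choose the sites.

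In LNCaP, bicalutamide alone gave no detected change at these sites. The median level was 11.5 and 9.96 RPM with bicalutamide against 10.3 and 10.4 with ethanol and 8.14 untreated. None of the 54 met the rule that chose them in BicR, which 2 of 13294 sites (0.015%) met in LNCaP. By edgeR 0 rose and 0 fell at the adjusted threshold (0% of all sites in each direction), 0 were higher and 0 lower at an unadjusted p under 0.05 (1.4% and 0.496% of all sites), while DESeq2 called 0 of them. Without the 6 h bicalutamide library, which held more tags at the near-empty sites, edgeR again called 0 in either direction, also at an unadjusted p under 0.05. The median log2 change was 0.06, with 35 sites above 0 and 19 below, and the range was -1.17 to 2.87. Both bicalutamide libraries lay above both ethanol libraries at 11 of the 54 sites (8.1% of all sites) and below them at 5 (19.9% of all sites).

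The interval of each change shows what this design could not detect. The 95% interval of the log2 change included 0 at all 54 sites, and at 19 it lay below a rise of 1.7 times, so at the other 35 a rise of that size could not be told apart from none. At the chromosome 19 site at 51376694 LNCaP read 40.5 and 32.2 RPM with ethanol and 63.9 and 39.9 with bicalutamide (log2 change 0.53, SE 0.37, edgeR adjusted p = 1). At the chromosome 21 site at 42880084 it read 35.7 and 38.0 RPM with ethanol and 30.5 and 43.7 with bicalutamide (log2 change 0.06, SE 0.39, edgeR adjusted p = 1). The libraries of the treatments overlapped at both sites.

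With DHT in LNCaP 10 of these sites passed as higher (0.105% of all sites), and 44 did not pass. The median level was 25.6 and 30.1 RPM with DHT, and both DHT libraries lay above both ethanol libraries at 52 of the 54 sites, against 10.9% of all sites. By edgeR 10 rose and 0 fell (0.105% and 0.00752% of all sites), with a median log2 change of 1.57 and all 54 above 0. At an unadjusted p under 0.05, 51 were higher, against 3.33% of all sites. The rule of 1.7 times at both times and 10 RPM, applied to DHT over ethanol in LNCaP, took 28 of the 54 and 0.331% of all sites. This comparison shares the LNCaP ethanol libraries with that of bicalutamide.

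Among the 10 were both high chromosome 19 sites and all 3 sites of the chromosome 8 neighbourhood at 23537636 to 23540447. The site at 51358170 read 434 and 357 RPM with ethanol and 1504 and 2189.6 with DHT (log2 change 2.27, SE 0.21, edgeR adjusted p = 0.00155, range 1.46e-27 to 0.0956 over 9 settings). The site at 51376694 read 40.5 and 32.2 RPM with ethanol and 306 and 320 with DHT (log2 3.19, SE 0.38, edgeR adjusted p = 0.0128, range 1.31e-08 to 0.397 over 9 settings). At 23540447 the level was 33.2 and 36.1 RPM with ethanol and 254 and 179 with DHT (log2 2.65, SE 0.37, edgeR adjusted p = 0.0164). In each of the 3 the DHT and ethanol libraries stood far apart. With bicalutamide alone the first read 467 and 449.8 RPM and the last 49.4 and 44.8 RPM. At these sites both bicalutamide libraries lay above both ethanol libraries, a smaller difference that did not pass.

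The LNCaP count of 10 depended on every library in it. It was 29 without the library that stands apart (0.409% of all sites) and 25 with DESeq2 (0.369% of all sites). Without the time term it was 5, with no share of all sites given. It was lower whenever 1 of the compared libraries was missing. The minus-strand site at 179770153 on chromosome 2 had 0 tags in both LNCaP ethanol libraries and 1.74 and 0.866 RPM with DHT, at least 3.16-fold higher against a floor of 3 tags per library. In BicR that site read 0.130 and 0.134 RPM with ethanol, 14.5 and 1.63 with bicalutamide, and 27.6 and 11.1 with DHT.

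The DHT response could be compared between the lines against their untreated libraries. In LNCaP 2 of the 54 rose by this contrast and 0 fell (0.0903% and 0% of all sites), with 44 higher at an unadjusted p under 0.05 (11% of all sites). The count was 28 without the library that stands apart, 14 by DESeq2, 10 with DESeq2 size factors, 0 without the time term, and lower without a DHT library. Shares of all sites are not given for these runs, so the counts show only how far the result moves with the setting. The test of the difference between the lines called 0 sites in either direction (0% of all sites each way), and DESeq2 called 0. At an unadjusted p under 0.05, 3 of the 54 were larger in BicR and 0 in LNCaP (5.16% and 7.48% of all sites). Its median, without 2 sites at 0 tags in LNCaP, was 0.42 on the log2 scale in the direction of BicR. The untreated level plus 1 RPM was itself higher in BicR at 39 of the 54, by at least 2 times at 17, and lower by at least 2 times at 3. The median ratio was 1.38 against 1.03 over all sites. The rule required 10 RPM in BicR and no level in LNCaP, which favours sites that are higher in BicR. The test of the difference did not detect a larger DHT response in BicR at these sites.

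**Figure D3:**
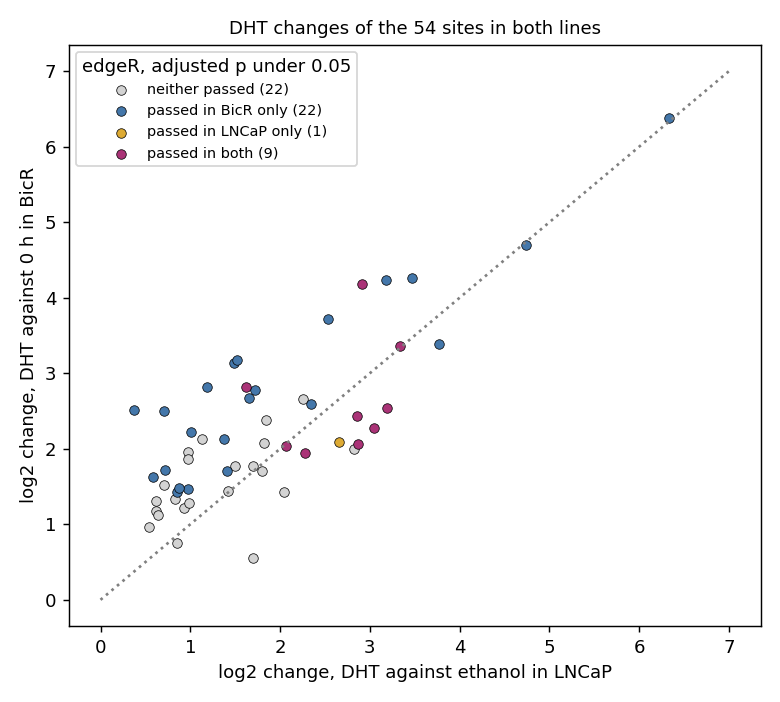
Fitted log2 change with DHT for the 54 sites, in LNCaP against ethanol (x axis) and in BicR against the untreated library (y axis), coloured by which comparison passed edgeR at an adjusted p under 0.05. The dotted line marks equal changes, and all 54 points are above 0 on both axes, with 9 passing in both lines, 22 in BicR alone, 1 in LNCaP alone and 22 in neither.

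No library is common to the BicR DHT and LNCaP DHT comparisons, although both take their spread from the same fit. Of the 31 sites called in BicR 9 were called in LNCaP (29.0%), which is 90% of the 10 called there. Over the 54 sites 57.4% were called in BicR and 18.5% in LNCaP. Across the 54 sites the fitted changes had a Pearson r of 0.787 and a Spearman rho of 0.665. Sites are not independent replicates, and each point shares its libraries with the others, so these values describe the plot.

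With bicalutamide added to DHT in BicR, 12 of the 54 sites passed as higher than untreated (0.76% of all sites). The median level was 24.5 RPM at 6 h and 50.9 RPM at 24 h with both compounds, and 52 of the 54 stood above the untreated library at both times, against 22.7% of all sites. Against the untreated library 12 rose and 0 fell by edgeR (0.76% and 0.113% of all sites), with a median log2 change of 1.71. At an unadjusted p under 0.05, 49 were higher (9.18% of all sites). The smallest p was at the chromosome 19 site at 51358170, at 529 and 684 RPM against 128 untreated (log2 2.19, SE 0.28, edgeR adjusted p = 0.00524, range 1.02e-13 to 0.0944 over 7 settings). Next came the chromosome 5 site at 113697781, at 38.7 and 49.4 RPM against 10.5 (log2 2.19, SE 0.32, edgeR adjusted p = 0.0137, range 3.15e-05 to 0.123 over 7 settings). The count was 44 without the 6 h library, which is the one that stands apart (0.628% of all sites). It was 28 by DESeq2 (0.767% of all sites) and 0 without the time term (0% of all sites). Leaving out the 24 h library keeps only the library that stands apart, and the median log2 change was then 1.29. Without the 6 h library that median was 2.18. This contrast shares its untreated library with that of DHT alone.

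Directly against DHT in BicR, the combination gave no called difference. By edgeR 0 of the 54 rose and 0 fell (0.128% and 0% of all sites), with 5 lower at an unadjusted p under 0.05 (2.66% of all sites), and DESeq2 called 0. The median log2 difference was -0.41, against 0.01 over all sites, and 52 of the 54 were below 0. The times differed. At 6 h the ratio of levels plus 1 RPM, DHT with bicalutamide over DHT, had a median of 0.548 (0.944 over all sites), with 51 of 54 below 1, as were 59.8% of all sites. At 24 h it was 0.945 (1 over all sites), with 40 below 1, as were 49.5% of all sites. Without the 24 h library 21 of the 54 passed as lower (0.925% of all sites), a count that rests on the 6 h library that stands apart. That library's part in the 6 h values was not tested.

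In LNCaP the times stood the other way. There the ratio of DHT with bicalutamide over DHT had a median of 0.862 at 6 h, with 46 of 54 below 1 (60.2% of all sites), and of 0.600 at 24 h, with all 54 below 1 (49.4% of all sites). By edgeR 0 rose and 0 fell (0% of all sites each way), with 8 lower at an unadjusted p under 0.05 (0.955% of all sites) and a median log2 difference of -0.53, and DESeq2 called 0. At the chromosome 21 site at 42880084, LNCaP read 299.8 and 245 RPM with DHT and 217 and 93.3 with both compounds, while BicR read 246 and 248 RPM with DHT and 124 and 188 with both. At the chromosome 8 site at 23540447 the LNCaP levels were 254 and 179 RPM with DHT and 164 and 90.8 with both. The test of the difference between the lines in what bicalutamide does to DHT called 0 of the 54 (0% of all sites each way), as did DESeq2, and 0 did so in either direction at an unadjusted p under 0.05 (2.28% and 0.94% of all sites). That test averages 6 and 24 h, so a difference in timing was not tested.

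**Figure D4:**
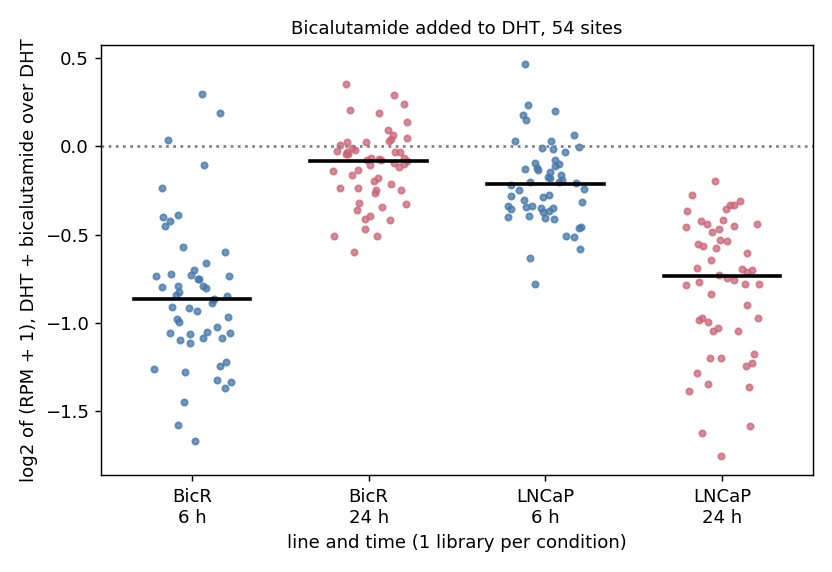
Log2 ratio of DHT with bicalutamide over DHT alone, in RPM plus 1, for the 54 sites (points) with their median (bar), by line and time. In BicR the points lie mostly below 0 at 6 h and near 0 at 24 h, and in LNCaP all 54 lie below 0 at 24 h.

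The R1881 time course is a separate experiment in LNCaP. Of the 54 sites 39 have the same name in its table (72.2%, against 64.3% of all 13294), where a site is a cluster of bases, with a median width of 275 bp for these 39 and 159 bp for all shared sites. By position 53 of the 54 lay inside a cluster on the same strand, and only those with the same name are counted below. The filter on low tag counts kept 37 of the 39. A site can pass it through its highest libraries alone, so the counts describe those 37 and are no support by themselves. The course has no vehicle after 0 h, so R1881 and time in culture cannot be told apart.

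By edgeR 12 of the 37 rose and 0 fell at 48 h (1.39% and 0.494% of all sites), with a median log2 change of 2.34. At 72 h 13 rose and 0 fell (1.51% and 0.988% of all sites), with a median of 2.20. At an unadjusted p under 0.05, 28 and 31 of the 37 were higher (7.19% and 8.12% of all sites). At both times the smallest p was at the minus-strand site at 9143812 on chromosome 2, a cluster from 9143690 to 9143917. Replicates 1 and 2 read 17.4 and 23.1 RPM at 0 h, then 339 and 311 RPM after 48 h, then 399.7 and 459 RPM after 72 h (log2 4.04, SE 0.44, edgeR adjusted p = 0.000618 at 48 h, and log2 4.46, SE 0.45, edgeR adjusted p = 0.000316 at 72 h). The cluster at 80992579 to 80993099 on chromosome 8, which holds the site at 80993064, read 2.37 and 7.99 RPM at 0 h, then 397 and 623 RPM after 48 h, then 543 and 814 RPM after 72 h (log2 6.54 and 6.97, edgeR adjusted p = 0.00126 and 0.000707). Its 0 h readings are 3 and 29 tags, so that of replicate 1 is at the 3-tag limit. Both clusters passed under all 9 alternative settings tried at each time.

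The counts above come from a fit without the replicate number, although that number acted as a pairing in this course. With it as a block 29 of the 37 rose at 48 h (4.96% of all sites) and 29 at 72 h (6.28% of all sites). Without the replicate 2 libraries at 6 h and 18 h, and with no block, the counts were 20 of 38 and 23 of 38. Shares of all sites are not given for that run, so these counts show only how far the result moves. Leaving out a library at 0 h or at the time compared gave 3 to 7 of 39 at 48 h and 3 to 4 of 39 at 72 h.

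The early times of the course are a description, and edgeR called 0 of all sites at 3 h and at 6 h. At 3 h the fitted change was above 0 at all 37 sites, with a median log2 of 1.14, and both libraries lay above both 0 h libraries at 27 (13.2% of all sites). At the following times the median was 1.47 (6 h), 1.89 (12 h) and 2.08 (18 h). Both libraries lay above both 0 h libraries at 21 of the 37 after 6 h, at 32 after 12 h and at 25 after 18 h (13.6%, 18% and 15.5% of all sites), and below them at 2 after 6 h and 2 after 18 h (23.9% and 30.1% of all sites). The fitted change was below 0 at 6 of the 37 after 6 h and at 5 after 18 h. Between 3 h and 48 h the fitted change grew at 28 sites and shrank at 9. Some sites read very differently between replicates at 6 h and 18 h. At the cluster holding the chromosome 20 site at 56285070, replicates 1 and 2 read 131 and 10.5 RPM after 6 h and 233 and 26.1 RPM after 18 h, against 22.2 and 13.8 RPM untreated.

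Not every site kept its level with R1881. The chromosome 12 site at 92539621, called with DHT in BicR, read 523 and 348 RPM at 0 h, then 965 and 609 RPM after 3 h, 504 and 264 RPM after 48 h and 227 and 278 RPM after 72 h. The fitted log2 change was 0.78 (3 h), -0.14 (48 h) and -0.71 (72 h), and neither late change passed (edgeR adjusted p = 0.983 and 0.59). The chromosome 17 site at 74639838 read 7.91 and 8.82 RPM at 0 h, then 64.8 and 127 RPM after 18 h, 78.0 and 58.3 RPM after 48 h and 32.5 and 21.2 RPM after 72 h. It passed at 48 h (log2 3.05, SE 0.51, edgeR adjusted p = 0.00795) and not at 72 h (log2 1.697, edgeR adjusted p = 0.0889). The chromosome 2 site at 179770153 differed between replicates, at 0 and 157 RPM after 18 h and 1.53 and 59.96 RPM after 48 h. The replicate 1 readings are 0 tags and 1 tag, under the 3-tag limit, against 253 and 223 tags in replicate 2.

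**Figure D5:**
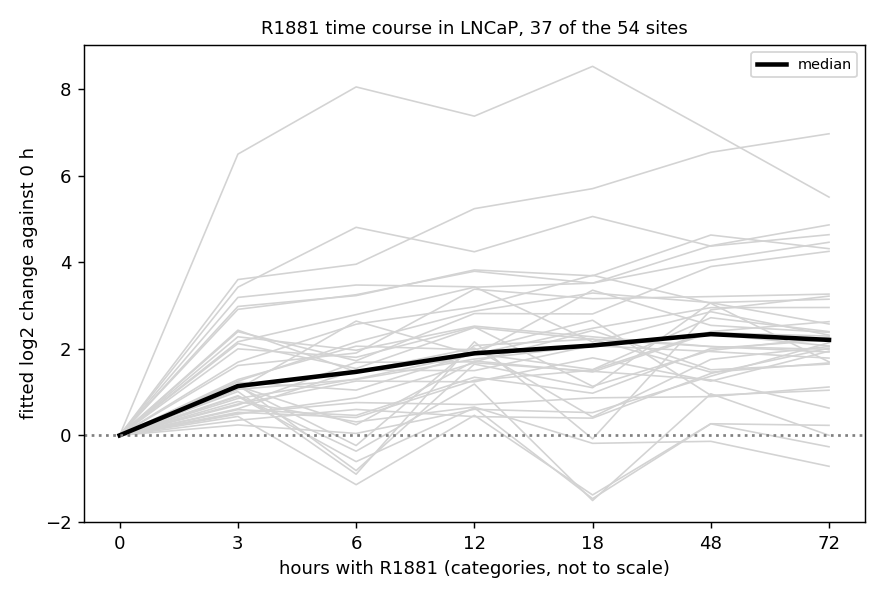
Fitted log2 change against 0 h for the 37 tested sites (grey lines) and their median (black line) at each time of R1881 in LNCaP, with times spaced evenly and not to scale. The median rises from 1.14 at 3 h to 2.34 at 48 h and is 2.20 at 72 h.

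The R1881 course shares no library with the other experiments. Of the 31 sites called with DHT in BicR 7 were called at 48 h of R1881 (22.6%), which is 58.3% of the 12 called there. Of the 10 called with DHT in LNCaP 2 were (20%, and 16.7% of the 12). Over the 54 sites 57.4% were called with DHT in BicR and 18.5% in LNCaP, so the shares of the 12 lie near those of the whole list. Sites were matched to the R1881 table by name, so those lying in a cluster under another name were not counted here. The minus-strand site at 42880084 on chromosome 21 was called in all of these, with 111 and 35.5 RPM at 0 h and 1879 and 1049.7 at 48 h of R1881 (log2 4.38, SE 0.60, edgeR adjusted p = 0.00296), as was the chromosome 8 site at 80993064. Over the 37 sites the change at 48 h had a Pearson r of 0.778 and a Spearman rho of 0.615 with the DHT change in BicR, and 0.600 and 0.369 with that in LNCaP, again as a description of sites that share libraries.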

How the data were processed

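CAGE libraries were read on a HeliScope sequencer, and positions are on hg19, per the labels' protocols and the submitters' processing notes. The aligner and site caller are not given in the sources used here. The authors deposited raw tag counts and RPM values for each site, per the file headers. Groups come from the sample labels, and columns of samples outside the series numbered 0. The 54 sites, the lists and the comparisons were chosen with earlier results of these data known, and 4 comparisons (DHT with bicalutamide against DHT in LNCaP, DHT against 0 h in LNCaP, and both differences between lines) were added after the data were seen.

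Tests used deposited counts with edgeR 4.0.16 in R 4.3.3 (TMM, filterByExpr with a minimum count of 10, quasi-likelihood F test, Benjamini-Hochberg over all sites). The 18-library table had a coefficient per line and treatment, 0 h its own, and a 24 h term per line, and the R1881 table a coefficient per time. Scripts were tested on simulated data. Alternatives were DESeq2 1.42.0, its size factors, no filter, no time term, a replicate block, other membership rules, matching to the R1881 table by position and leaving out libraries. In the R1881 course, libraries with the same number departed together from the mean of their time (correlation 0.142 to 0.566 over 21 of 21 pairs of times). The numbers were used as a block in an alternative run only, and the main R1881 fit has no block. The labels do not say what they stand for. Named sites were the 8 with the largest smaller ratio, the 4 with the highest mean level with bicalutamide, those nearest the threshold, and the 2 smallest p per comparison. The site on chromosome 2 at 179770153 was chosen after its values were seen. The limit of 3 tags covers counting error only.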

Additional observations from a re-analysis of the deposited data

How the results depend on the processing

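The called sites picked for the 2 smallest p in a comparison kept their direction there in every alternative run. The sites named for other reasons were not followed through these runs. The counts of members called lower stayed at 0 in all but 1. The share of the 54 sites rising with DHT against 0 h in BicR (57.4%) was 0% without the time term (0% of all sites). It was 92.6% without the library that stands apart (1.72% of all sites). It fell when a DHT library was left out, which leaves 1. For DHT with bicalutamide against 0 h in BicR (22.2%) it was 51.9% by DESeq2 (0.767% of all sites) and 0% without the time term (0% of all sites). It was 81.5% without the library that stands apart (0.628% of all sites). It also moved when the 24 h library of both compounds was left out, which leaves 1. For the combination against DHT in BicR the share called lower ranged over 0 to 38.9% when a library was left out. For DHT against ethanol in LNCaP the share rising (18.5%) was 46.3% by DESeq2 (0.369% of all sites). It was 53.7% without the library that stands apart (0.409% of all sites). Without the time term it was 9.26%, with no share of all sites given. Of the 87 sites taken at a ratio of 1.5 it was 11.5% (0.105% of all sites), and it fell when a compared library was left out. For DHT against 0 h in LNCaP (3.70%) it was 18.5% with DESeq2 size factors, 25.9% by DESeq2, 0% without the time term, 51.9% without the library that stands apart, 2.30% at a ratio of 1.5, and 0 to 1.85% when a library was left out. For R1881 at 48 h and 72 h (32.4% and 35.1%) the replicate block gave 78.4% at both times, leaving out the 6 h and 18 h libraries of replicate 2 gave 52.6% and 60.5%, and leaving out a library gave 7.69 to 17.9% and 7.69 to 10.3%. The bicalutamide comparison in LNCaP stayed at 0% in every alternative. Fewer libraries leave fewer residual degrees of freedom. The cause of the moves, with or without a library left out, was not tested.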
